A study of Mus musculus with 6 samples.

Results

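The contractile apparatus of vascular smooth muscle cells (VSMCs) was examined through 10 genes of the 32287 in the count tables, chosen by name for their known role in contraction: *Acta2*, *Tagln*, *Myh11*, *Myl9*, *Mylk*, *Cnn1*, *Des*, *Smtn*, *Tpm2*, and *Pln*. Single cells from brain microvessels of 3 wild-type (WT) mice, of genotype C57BL/6J, were compared with those of 3 mice of the *TgApp* ArcSwe model (labelled AppArcSwe, here ArcSwe), which carries a human amyloid precursor protein transgene with the Arctic and Swedish mutations and accumulates amyloid-β in plaques and in vessel walls. The promoter that drives the transgene is not given in the sources used here. All 6 mice were male, untreated, and 12 months old. Vessel fragments of 1 cerebral hemisphere per mouse were captured with magnetic beads against the endothelial protein CD31, so mural cells came along with the endothelium they were attached to. Each mouse gave 1 droplet-based 3′ sequencing library, in which 1 UMI (unique molecular identifier) counts 1 captured RNA molecule. The question was whether the contractile genes differed between the genotypes in VSMCs and in pericytes, with endothelial cells as the background.

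Smooth muscle contracts when calcium entering through the plasma membrane or released from the sarcoplasmic reticulum binds calmodulin and activates myosin light chain kinase, which phosphorylates the regulatory light chain of smooth muscle myosin. The myosin then pulls on thin filaments of smooth muscle actin and tropomyosin that are anchored in dense bodies and held by intermediate filaments. In the brain, VSMCs wrap arteries and arterioles and set their diameter, whereas capillary pericytes carry little of this machinery. Serum response factor with its cofactor myocardin drives many contractile genes through a DNA element called the CArG box.

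Upstream sequences from RefSeq (GRCm38.p6) were searched for the CArG box because it is the element most tied to this gene set. Of the 10 genes, 8 had an entry, and *Tagln* and *Myh11* had none. In the 250 bases before the RefSeq start, an exact box was found in 1 of the 8 genes, *Myl9*, and in 482 of 32851 windows of that length (1.47%). The box reads the same way on both strands, so 1 search covers both. A box in which 1 of the 6 inner bases is C or G was found in 2 of the 8 genes, *Acta2* and *Myl9*, and in 7.24% of all windows. The RefSeq start is not the start given in GENCODE M21, the annotation used for the gene positions below: before that start lie all 250 bases of the *Des* window, 206 bases of that of *Myl9*, 33 of that of *Acta2*, and none of those of *Mylk* and *Smtn*. The 206 *Myl9* bases are shown 5′ to 3′ with the exact box in capitals, and of *Acta2* both relaxed boxes alone, which lie inside its GENCODE span. The *Myl9* bases lie at chr2:156775214-156775419 on the plus strand, with the box 161 to 152 bases before the RefSeq start. The *Acta2* window is chr19:34255374-34255623 on the minus strand, with boxes 84 to 75 and 34 to 25 bases before that start.
Myl9: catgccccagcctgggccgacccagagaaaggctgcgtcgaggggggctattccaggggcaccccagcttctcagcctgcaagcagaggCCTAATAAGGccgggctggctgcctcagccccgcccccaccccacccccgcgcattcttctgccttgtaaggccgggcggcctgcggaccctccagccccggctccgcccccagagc
Acta2, first box: CCCTATATGG
Acta2, second box: CCTTGTTTGG
These matches describe the letters in the windows, which in 7 of the 8 genes run past the GENCODE start, and no binding was measured.

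In the GRCm38 annotation (GENCODE M21) *Acta2* spans chr19:34241090-34255590 on the minus strand, *Myh11* chr16:14194535-14291372 on the minus strand, *Myl9* chr2:156775420-156781658 on the plus strand, and *Mylk* chr16:34745210-35002420 on the plus strand. None of the 10 genes overlaps another gene on its own strand. *Tagln*, *Mylk*, *Des*, *Smtn*, and *Pln* overlap a gene on the opposite strand, and whether the counting used strand is not given in the sources used here.

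The libraries held 49059 cells, of which 44112 passed the filter, and the 15 pairs of libraries shared 4 to 42 cell barcodes. Cell classes were named from other marker genes, with the contractile genes kept out of both the markers and the genes used for clustering. VSMC-like clusters, named from 9 markers such as *Kcnmb1* and *Olfr558* and called VSMCs below, held 2914 cells (167 to 869 per mouse) and 1171060 to 3368082 UMIs per mouse. Pericyte-like cells, named from 8 markers such as *Kcnj8*, *Abcc9*, and *Vtn*, were far fewer, with 348 cells (15 to 172 per mouse) and 49873 to 329293 UMIs per mouse. Endothelial cells numbered 24152. A further pair of mural classes was smaller: 142 cells of 1 cluster with markers of both VSMCs and pericytes (intermediate), and 136 cells of 2 clusters named from *Colec11*, *Ccl19*, and *Col3a1*, called venous-type. WT replicate 3 stood apart in VSMCs: the summed level of the immediate early genes *Jund*, *Junb*, *Fos*, and *Fosb* was 13252 CPM (UMIs of the genes per 1000000 UMIs summed over the class) against 24124 to 29007 in the other mice. Its VSMCs and those of ArcSwe replicate 3 also held more microglial RNA (428 and 439 CPM over 6 markers, 123 to 235 in the others) and more erythroid RNA (231 and 421 CPM over 3 markers, 10.2 to 46.6 in the others). Each test was therefore also made without these mice. In sums over a class, fewer cells and less RNA per cell cannot be told apart, so levels are given relative to the total of the class.

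The genes split by how far they were restricted to VSMCs. The thin filament genes *Acta2*, smooth muscle actin, and *Tagln*, the actin-binding protein transgelin, were almost confined to VSMCs and the intermediate and venous-type classes. In VSMCs, *Acta2* lay at 15304, 14021, and 14075 CPM in the WT mice and 15039, 13729, and 14960 CPM in the ArcSwe mice. In pericytes it lay at 131, 80.2, and 57.7 CPM in WT and 59.9, 19.6, and 128 CPM in ArcSwe. The mice of both genotypes overlapped in each class, and pericytes held 0.538% ± 0.28 (SD, n = 6 mice) of the VSMC level. *Tagln* in pericytes stood at 0.347% ± 0.274 of its VSMC level, *Pln*, whose product phospholamban restrains the calcium pump of the sarcoplasmic reticulum, at 0.366% ± 0.597, and *Cnn1*, the actin-binding protein calponin, at 0.272% ± 0.666, with 1 *Cnn1* UMI in all pericytes together. For these 4 genes the range over mice overlapped that of microglia, which should lack the genes: the microglial mean was 44 CPM for *Acta2*, 31.5 for *Tagln*, 7.94 for *Pln*, and 1.23 for *Cnn1*. Compared within each mouse, *Acta2* was higher in pericytes than in microglia in 5 of 6 mice, *Tagln* in 3, and *Pln* and *Cnn1* in 1.

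A second group was shared between VSMCs and pericytes. *Myl9*, the regulatory light chain, averaged 1439 CPM in pericytes, 24.5% ± 3.69 of the VSMC level. *Mylk*, the kinase that phosphorylates it, stood at 19.1% ± 2.17. *Des*, the intermediate filament protein desmin, stood at 24.6% ± 10.6 and *Smtn*, the actin-binding protein smoothelin, at 31% ± 9.89. *Smtn* was not particular to VSMCs and pericytes. It averaged 64.8 CPM in pericytes and 62.8 CPM in endothelial cells, with pericytes higher in 2 of 6 mice. Fenestrated endothelial cells, a separate class of 633 cells, averaged 96.7 CPM of *Smtn*. *Myh11*, the smooth muscle myosin heavy chain, and *Tpm2*, β-tropomyosin, lay between the 2 groups, at 4.2% ± 1.28 and 4.64% ± 2.1. The myosin heavy chain and its regulatory light chain thus differed in how much of the VSMC level pericytes kept. No test was made of levels between classes, since the classes were separated by related genes of the same cells.

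The intermediate cells held 29.3% to 53.6% of the VSMC level for 7 of the 10 genes. *Des* stood at 92.3% ± 14.3 there, overlapping VSMCs, and *Pln* at 19.2% ± 8.92, whereas no *Cnn1* UMI was found in the 142 cells. The venous-type cells held between 14.9% (*Cnn1*) and 71.9% (*Des*) of the VSMC level, but this class joins 2 unlike clusters. *Acta2* averaged 616 CPM in one (70 cells) and 6382 CPM in the other (66 cells), and *Pln* 26.9 and 810 CPM. The clusters were mixed differently in each mouse, from 9 and 20 cells in WT replicate 3 to 16 and 11 cells in ArcSwe replicate 3, and *Acta2* in the joined class ranged from 11.4% to 39.3% of the VSMC level. In the order of mean levels, VSMCs came first for all 10 genes, and only for *Des* did the next class overlap them.

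Endothelial cells gave 0.13% to 0.381% of the VSMC level for 8 genes. The exceptions were *Smtn*, at 30.2% ± 2.81, and *Mylk*, at 1.8% ± 0.517. *Smtn* was at 60.7, 65.9, and 63.1 CPM in the endothelial cells of WT mice and 63.2, 67.6, and 56 CPM in those of ArcSwe mice. Those values span a narrow range, whereas *Smtn* averaged 4.36 CPM in microglia. *Mylk* was carried mainly by arterial endothelial cells, at 6.5% ± 0.8 of the VSMC level (167 CPM) against 20.4 CPM in the other endothelial cells, and the mice did not overlap between these 2 classes. The remaining endothelial levels followed the library: *Acta2* stood at 58.3 CPM in WT replicate 3 and 41.9 CPM in ArcSwe replicate 3, and at 7.82 to 19.2 CPM in the other mice. These same libraries held the most VSMCs (589 and 869, against 167 to 477), and the part of free VSMC RNA in the endothelial values was not tested. The map of percentages by gene and class shows both groups of genes.

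**Figure D1:**
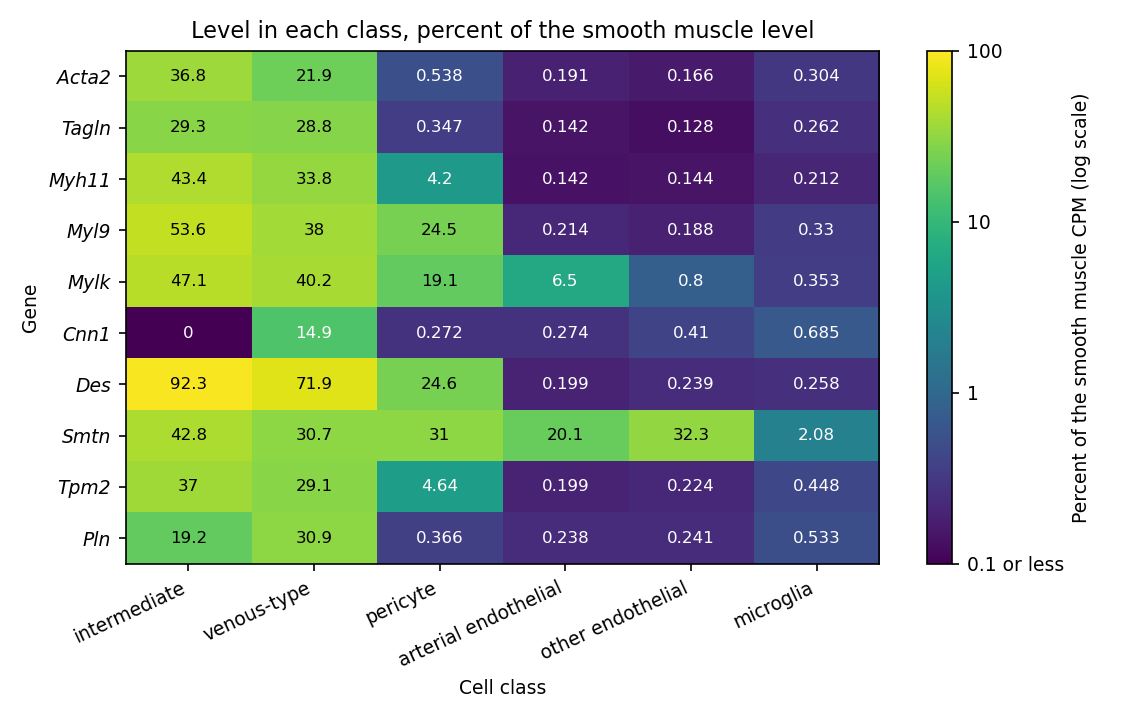
Mean level of each contractile gene (rows) in 6 cell classes (columns) as a percentage of its VSMC level, averaged over 6 mice, with colour on a log scale. *Myl9*, *Mylk*, *Des*, and *Smtn* stand at 19.1% to 31% in pericytes, *Acta2*, *Tagln*, *Cnn1*, and *Pln* below 1%, and in endothelial cells *Smtn* and arterial *Mylk* stand out.

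At the level of single cells, detection in VSMCs was close to complete for the abundant genes. After thinning every cell to 1000 UMIs, which left out 40 of 2914 VSMCs, *Acta2* was found in 99.5% of VSMCs (98.8% to 100% by mouse; 99.7% before thinning) and *Tagln* in 99.4% (99.7% before thinning). *Tpm2*, *Myl9*, and *Myh11* were found in 95.1%, 97.1%, and 94.6% of thinned VSMCs, and *Mylk* in 86.4%. *Pln* was found in 68.2% and *Des* in 44%, and before thinning in 96.9% and 86.4%. *Cnn1* and *Smtn* were found least, in 11.1% and 14.8% of thinned VSMCs and in 35.3% and 54.3% before thinning. In thinned pericytes *Myl9* was found in 70.5% of cells and *Mylk* in 32.3%, while *Acta2* was found in 6.67% and *Tagln* in 3.44%. The thinned microglial shares were 4.51% for *Acta2*, 2.49% for *Tagln*, 1.45% for *Myl9*, and 0.664% for *Mylk*. The median before thinning was 1471 UMIs per microglial cell, 2317 per pericyte, and 5096 per VSMC. Thinning left out 25 of 348 pericytes and 1546 of 6654 microglia (472 of 3280 in WT, 1074 of 3374 in ArcSwe). By mouse, the thinned *Acta2* share ran from 3.23% to 11.1% in pericytes and from 1.43% to 10.4% in microglia.

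VSMCs were not uniform. They formed 8 clusters without use of the contractile genes, and *Cnn1* varied most among them, from 18.7 CPM ± 16.1 (SD over 6 mice) in cluster 1 to 441 CPM ± 62.8 (5 mice) in cluster 9, a ratio of 23.6. The other 9 genes varied 1.87-fold (*Mylk*) to 3.99-fold (*Tpm2*) between their lowest and highest cluster. Each of the 10 genes was highest in cluster 7 or cluster 9, with *Acta2* at 22771 and 21396 CPM. A further mural cluster of 148 cells with few ribosomal counts was left unnamed and is not among the 8: its *Cnn1* (761 CPM) and *Smtn* (555 CPM) lay above those of every VSMC cluster, and its *Acta2* was at 16090 CPM. Cluster 8, led by *Pappa2*, *S100a4*, *Mgp*, and *S100a6*, held the lowest levels of 7 genes, with *Acta2* at 7758 CPM, *Myl9* at 2335 CPM, and *Tpm2* at 2107 CPM. Cluster 1 held the lowest levels of *Cnn1*, *Smtn*, and *Pln*, and among the VSMC clusters it had the highest detection of pericyte markers, while its *Mylk* (2108 CPM) and *Des* (664 CPM) stayed nearer to the other clusters. Cluster 0 was led by stress-related genes such as *Mt1* and *Cebpb* and held 1 cell of WT replicate 3 against 29 to 196 cells of each other mouse, whereas cluster 4 held 209 cells of that mouse against 4 to 85. These levels are a description of clusters and were not tested, since the cells clustered are those measured.

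**Figure D2:**
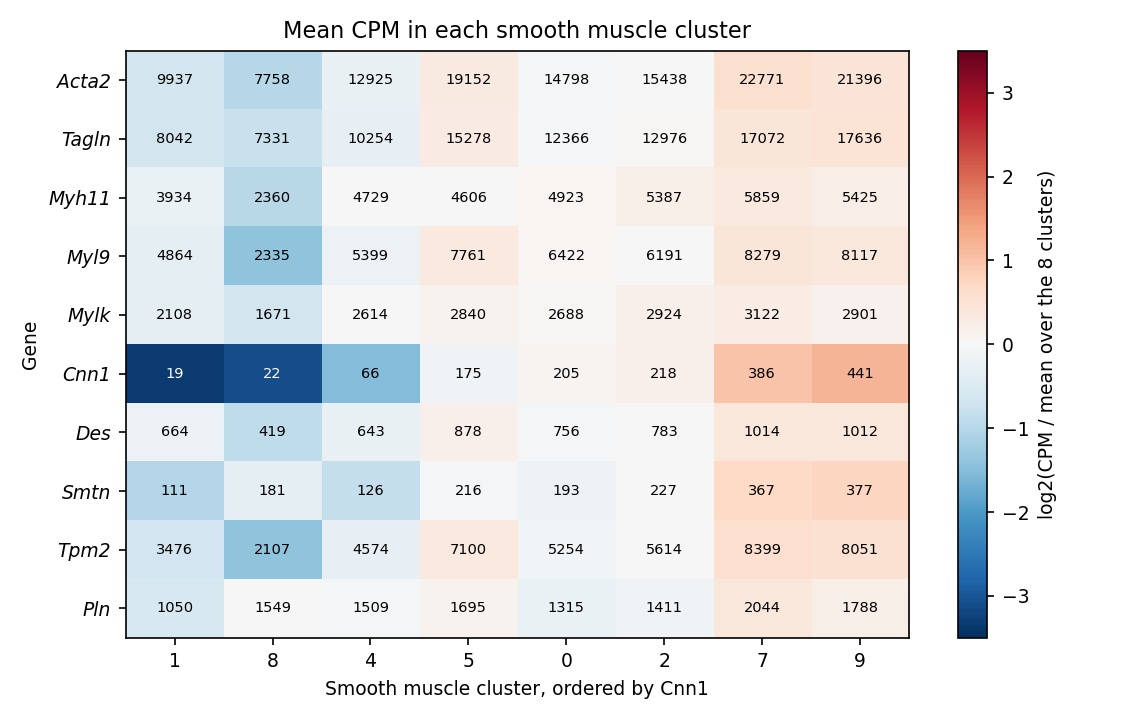
Mean CPM of each contractile gene (rows) in the 8 VSMC clusters (columns, ordered by *Cnn1*), averaged over mice with at least 10 cells in the cluster, coloured by the log2 ratio to the mean over the clusters. *Cnn1* runs from 18.7 to 441 CPM, and the other 9 genes differ by at most 3.99-fold.

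Outside the 10 genes, those whose pattern over 8 classes and 6 mice lay closest to the mean of the contractile genes were *Lmod1* (Pearson r = 0.987 on log2(CPM + 1), 48 points), *Flna* (0.968), *Npy1r* (0.966), *Fxyd1* (0.964), and *Parm1* (0.962). *Lmod1* encodes leiomodin 1, which nucleates actin filaments in smooth muscle, and *Flna* encodes the actin cross-linker filamin A. *Lmod1* averaged 748 CPM in VSMCs, 23.5 CPM in pericytes, and 1.65 CPM in non-arterial endothelial cells. Among the 10 genes themselves r ranged from 0.548 for *Smtn* to 0.987 for *Myh11*. The mean here includes the gene compared, which raises r, so these values are not on a par with those of the genes outside. The points share libraries and classes, so these values describe likeness only.

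Between the genotypes, no contractile gene passed the test in VSMCs. All 10 genes were tested, 7 with a positive and 3 with a negative log2 fold change of ArcSwe against WT, which ranged from -0.21 to 0.12 with standard errors of 0.12 to 0.17 (edgeR quasi-likelihood test, Benjamini-Hochberg adjusted p from 0.996 to 1.00). The 95% confidence intervals of the fold changes lay between 0.667 and 1.35 over the 10 genes, so larger differences in either direction fell outside them. The median log2 fold change of the 10 genes was 0.04, that of all 10217 genes tested -0.00028. Counting all genes, edgeR called 0 (0.0%) at an adjusted p under 0.05, DESeq2 called 0, and 439 (4.3%) had an unadjusted p under 0.05, none of them a contractile gene. On simulated VSMC sums with 200 of 10217 genes changed 2-fold at once, the same test recovered 148 of the 200, with 7 false calls. Recovery of a lone changed gene was not simulated.

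*Acta2* had a log2 fold change of 0.02 ± 0.16 (SE, n = 3 against 3 mice; 95% confidence interval -0.33 to 0.38). *Tagln* was at 11885, 11678, and 11694 CPM in WT and 12683, 11095, and 12420 CPM in ArcSwe, a log2 fold change of 0.05 ± 0.16. The mice of both groups overlapped for each of these genes. *Cnn1*, the gene that differed most between VSMC clusters, was at 172, 177, and 174 CPM in WT and 190, 141, and 186 CPM in ArcSwe, a log2 fold change of 0.01 ± 0.14. *Tpm2*, *Smtn*, *Des*, and *Pln* had log2 fold changes of 0.10, -0.04, 0.06, and 0.07, each within 1 standard error of 0, and the mice of both groups overlapped.

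The mice of the groups did not overlap for 2 of the 10 genes, *Myl9* and *Mylk*, against 9.91% of all genes tested. *Myl9* was at 5663, 5644, and 5769 CPM in WT and 6115, 5826, and 6461 CPM in ArcSwe, a log2 fold change of 0.12 ± 0.15 (adjusted p = 0.996, edgeR). Every ArcSwe mouse lay above every WT mouse, as for 4.17% of all genes. *Mylk* was at 2715, 2753, and 2602 CPM in WT and 2484, 2574, and 2359 CPM in ArcSwe, a log2 fold change of -0.11 ± 0.14 (adjusted p = 0.996, edgeR). Every ArcSwe mouse lay below every WT mouse, as for 5.74% of all genes. *Myh11* had the most negative value, with 5328, 5298, and 4171 CPM in WT and 4192, 4452, and 4075 CPM in ArcSwe and a log2 fold change of -0.21 ± 0.17 (adjusted p = 0.996, edgeR). In *Myh11*, WT replicates 1 and 2 stood above all ArcSwe mice, while WT replicate 3 stood among them. Immediate early RNA was at 29007 and 28192 CPM in WT replicates 1 and 2 and at 13252 CPM in WT replicate 3. The ArcSwe mice held 24124 to 26377 CPM of it, and the part of the immediate early response in the *Myh11* levels was not tested. Without WT replicate 3 the log2 fold change of *Myh11* was -0.37, and without both mice of replicate number 3 it was -0.33 (adjusted p = 0.208 and 0.219, edgeR). The plot of levels by mouse shows how close the VSMC values lay, with a coefficient of variation within a group of 0.979% to 15.8%.

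**Figure D3:**
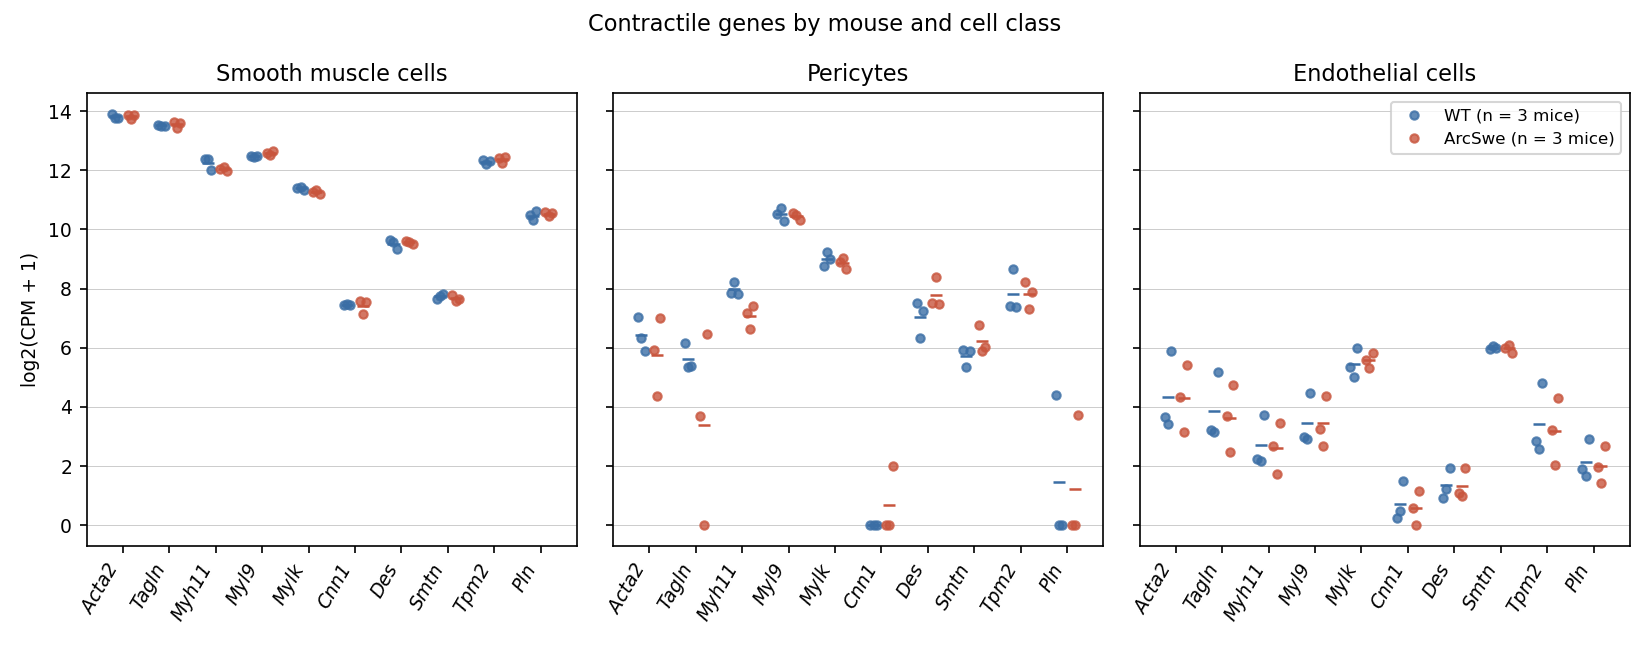
Level of each contractile gene as log2(CPM + 1) in VSMCs, pericytes, and endothelial cells, with 1 point per mouse (blue WT, red ArcSwe, 3 mice each) and a line at the mean of the log values. The points of both genotypes lie together in VSMCs, and in endothelial cells the highest *Acta2* points are those of WT replicate 3 (58.3 CPM) and ArcSwe replicate 3 (41.9 CPM).

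In pericytes 5 of the 10 genes had enough counts to be tested (*Myh11*, *Myl9*, *Mylk*, *Des*, and *Tpm2*), and none passed. *Acta2*, *Tagln*, *Cnn1*, *Smtn*, and *Pln* were removed by the filter on low counts. Among the 2012 genes tested, edgeR called 0 (0.0%) and DESeq2 0, and 63 (3.13%) had an unadjusted p under 0.05. *Myh11* was the 1 contractile gene among the latter. It was at 231, 301, and 225 CPM in WT and 144, 97.9, and 170 CPM in ArcSwe pericytes, and it was the 1 gene of the 5 tested whose groups did not overlap, as for 8.3% of all genes (4.03% with ArcSwe above and 4.27% with ArcSwe below). Its log2 fold change was -0.68 ± 0.28 (unadjusted p = 0.0256, adjusted p = 0.997, edgeR), from 5 to 56 UMIs per mouse. The summed level of the 9 VSMC markers in the same pericytes, all detected, was 744, 922, and 560 CPM in WT and 839, 588, and 668 CPM in ArcSwe, which overlap. In endothelial cells the same sum was higher, 1268 to 1443 CPM in WT and 1295 to 1408 CPM in ArcSwe. The sum is thus not specific to VSMC RNA, and the part of such RNA in the *Myh11* difference was not tested. When cells with UMIs of other cell types were left out, the log2 fold change of *Myh11* was -0.32.

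*Des* had the most positive value in pericytes, with 181, 80.2, and 150 CPM in WT and 180, 333, and 179 CPM in ArcSwe, a log2 fold change of 0.50 ± 0.32 (adjusted p = 0.997, edgeR). A single ArcSwe mouse, replicate 2, with 17 UMIs in 15 cells, stood above the rest. *Myl9*, *Mylk*, and *Tpm2* had log2 fold changes of -0.06 ± 0.23, -0.14 ± 0.25, and 0.14 ± 0.32. The intervals in pericytes were wider than in VSMCs, with fold changes from 0.417 to 2.25 over the 5 genes. On simulated pericyte sums with 200 of 2012 genes changed 2-fold at once, the test recovered 83 of the 200, with 4 false calls.

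The genotype effect in VSMCs was compared with that in pericytes in 1 model with the mouse as a block. None of the 5 genes tested in both classes passed for the difference (adjusted p = 1.00 for each, edgeR). For *Myh11* the VSMC effect minus the pericyte effect was 0.51 ± 0.37 on the log2 scale (95% confidence interval -0.22 to 1.24), and for *Des* -0.39 ± 0.34. For *Myl9*, *Mylk*, and *Tpm2* it was 0.18 ± 0.27, 0.04 ± 0.29, and -0.01 ± 0.36. Among the 9258 genes in this model edgeR called 3 (0.0324%), none of them a contractile gene, and 366 (3.95%) had an unadjusted p under 0.05. On simulated sums of both classes, 200 of 1986 genes were changed 2-fold in VSMCs alone. The test of the difference recovered 35 of the 200, with 6 false calls, so it would miss most differences of that size.

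In endothelial cells 9 of the 10 genes were tested, *Cnn1* having too few counts, and none passed. Among the 13477 genes that entered, edgeR called 0 (0.0%) and DESeq2 9, and 594 (4.41%) had an unadjusted p under 0.05, none of them a contractile gene. *Smtn*, the gene endothelial cells held at the highest share of the VSMC level, had a log2 fold change of -0.02 ± 0.10 (adjusted p = 0.998, edgeR). *Mylk* was at 39.9, 31, and 62.8 CPM in WT and 47.4, 38.7, and 55.4 CPM in ArcSwe, a log2 fold change of 0.11 ± 0.23. The other 7 genes had log2 fold changes of -0.23 to 0.03 with standard errors of 0.50 to 0.74, and the mice of both groups overlapped for each of the 9 genes, whereas they did not for 10.2% of all genes (4.04% with ArcSwe above and 6.11% with ArcSwe below). When arterial endothelial cells were taken alone, *Smtn* was at 43.1, 48.8, and 51 CPM in WT and 38.4, 37.7, and 33.3 CPM in ArcSwe, with every ArcSwe mouse below every WT mouse. These cells were tested after that pattern was seen. *Smtn* had a log2 fold change of -0.37 ± 0.14 there (unadjusted p = 0.0199, adjusted p = 1.00, edgeR), and none of the 7 contractile genes with enough counts passed. *Smtn* was the 1 gene of the 7 with an unadjusted p under 0.05, as for 3.66% of the 10727 genes tested, and the 1 without overlap, as for 9.28% (3.48% with ArcSwe above and 5.81% with ArcSwe below). Over all genes edgeR called 1 (0.00932%), *Ptchd1*, and DESeq2 12.

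In the intermediate cells the contractile genes were tested as well, after their levels had been seen. With 10 to 51 cells and 45224 to 154229 UMIs per mouse, 8 of the 10 genes had enough counts (not *Cnn1* and *Smtn*), and none passed. All 8 had a positive log2 fold change of ArcSwe against WT, 0.21 to 0.80, with a median of 0.30 against 0.01 over the 1880 genes tested. *Mylk* was at 1026, 1106, and 950 CPM in WT and 1289, 1546, and 1323 CPM in ArcSwe, a log2 fold change of 0.45 ± 0.17 (unadjusted p = 0.0133, adjusted p = 0.491, edgeR), whereas its VSMC value was negative. *Pln* was at 276, 66.3, and 240 CPM in WT and 314, 452, and 337 CPM in ArcSwe, 0.80 ± 0.30 (unadjusted p = 0.0118, adjusted p = 0.472, edgeR). *Acta2*, *Myl9*, *Mylk*, *Tpm2*, and *Pln* had every ArcSwe mouse above every WT mouse, 5 of the 8 genes, as for 6.81% of all genes (6.12% with ArcSwe below, 12.9% in either direction). *Acta2*, *Mylk*, *Des*, and *Pln* had an unadjusted p under 0.05, as for 7.34% of all genes. The 8 genes were measured in the same cells and can move together, so their common direction does not count as 8 separate results.

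Over all genes edgeR called 5 in the intermediate cells (0.266%), each higher in ArcSwe: *Klf4*, *Ccn2*, *Bcr*, *Socs3*, and *Hspa1a*. *Klf4*, a repressor of contractile genes and itself an immediate early gene, belongs to the serum response factor list described below. It was at 153, 88.4, and 219 CPM in WT and 594, 440, and 545 CPM in ArcSwe, from 4 to 84 UMIs per mouse, and rose by 1.67 ± 0.28 on the log2 scale (adjusted p = 0.00179, edgeR; 0.0113 in DESeq2). It passed under all 13 alternatives run, with a highest adjusted p of 0.0363 (edgeR or DESeq2). Other clusterings and doublet removal were not among them, so the choice of cells for this cluster was not varied that way. The summed level of the immediate early genes *Jund*, *Junb*, *Fos*, and *Fosb* in these cells was 9171, 11211, and 12893 CPM in WT and 14501, 10420, and 14128 CPM in ArcSwe, which overlap, and its part in the *Klf4* difference was not tested.

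**Figure D4:**
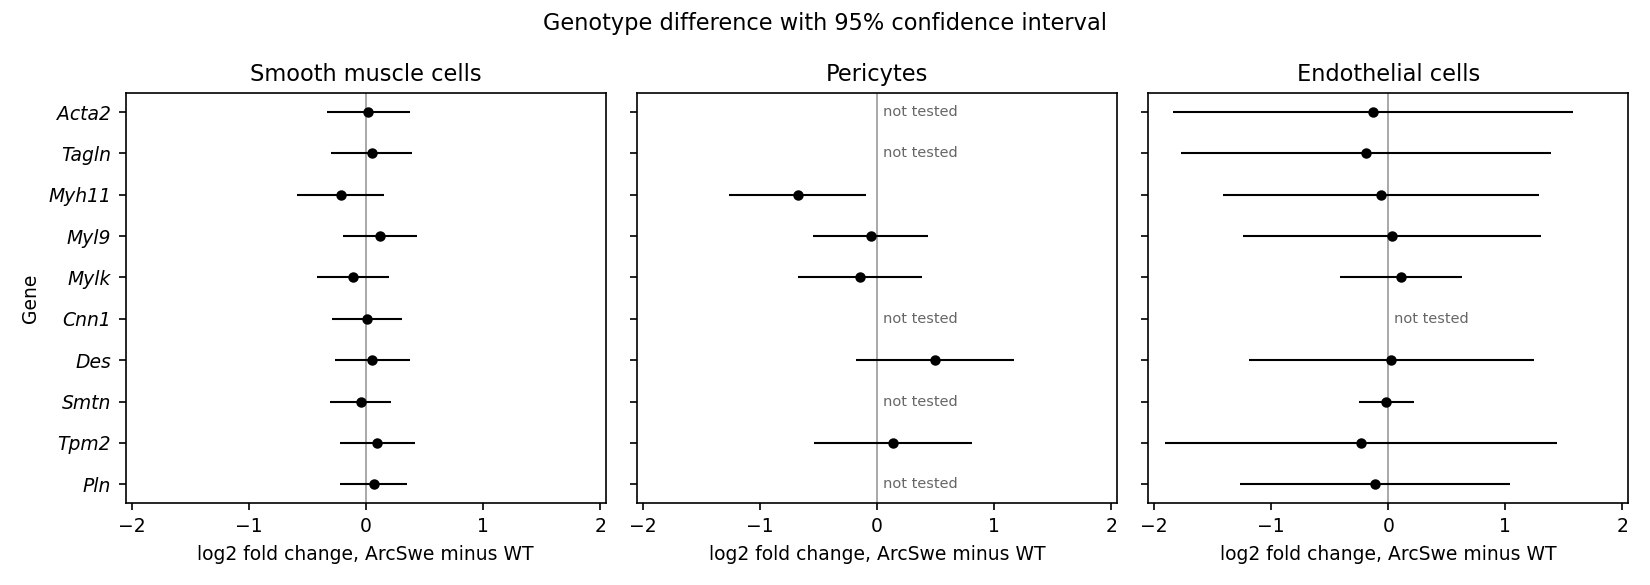
Log2 fold change of ArcSwe against WT (points) with its 95% confidence interval (lines) for each contractile gene in VSMCs, pericytes, and endothelial cells, from 3 mice against 3. In VSMCs every interval spans 0 and lies within -0.58 to 0.44, and in pericytes that of *Myh11* lies below 0 before adjustment for 2012 genes.

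Genes that work beside the contractile proteins were followed as 5 lists, 70 genes in all, of which 65 were tested in VSMCs, 45 in pericytes, and 59 in endothelial cells. None passed the test in these 3 classes (edgeR). In VSMCs 35 had a positive and 30 a negative log2 fold change, 3 had an unadjusted p under 0.05 (4.3% of all genes did), and 4 lay wholly above and 4 wholly below the WT mice (4.17% and 5.74% of all genes did, 9.91% together). The list of other myosin genes and myosin regulators (17 genes) had a median log2 fold change of 0.00097. In it *Myh10*, nonmuscle myosin heavy chain IIB, was at 28.8, 28, and 37.9 CPM in WT and 26.4, 17.1, and 22.3 CPM in ArcSwe, -0.47 ± 0.19 on the log2 scale. *Ppp1r12b*, a targeting subunit of myosin phosphatase, was at 641, 649, and 757 CPM in WT and 571, 552, and 570 CPM in ArcSwe, -0.26 ± 0.12. For both genes every ArcSwe mouse lay below every WT mouse (adjusted p = 0.996 each, edgeR).

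The thin filament list (14 genes, 11 tested) had the most positive median, 0.12, with 8 positive and 3 negative values. *Cnn3*, acidic calponin, was at 140, 156, and 173 CPM in WT and 174, 215, and 201 CPM in ArcSwe, 0.34 ± 0.12 on the log2 scale (adjusted p = 0.996, edgeR), with every ArcSwe mouse above every WT mouse. *Tpm3*, a cytoskeletal tropomyosin, had 0.30 ± 0.23, and its lowest value, 125 CPM, was that of WT replicate 3, against 203 to 260 CPM in the other mice. In the list of dense bodies, adhesions, and intermediate filaments (18 genes, median 0.01), *Pdlim5* had 0.19 ± 0.15 and *Tln1*, talin 1, -0.17 ± 0.15. In the list of sarcoplasmic reticulum and calcium entry (11 genes, 9 tested, median -0.06), *Stim1*, the calcium sensor that opens store-operated channels, had -0.22 ± 0.13 and *Casq2*, the calcium-storing protein calsequestrin 2, 0.19 ± 0.13. In the serum response factor and myocardin list (10 genes, median 0.00011), *Mrtfb*, a myocardin-related coactivator, had -0.23 ± 0.14 and *Klf4*, a repressor of contractile genes, 0.22 ± 0.29. *Klf4*, which is itself an immediate early gene, was at 481 CPM in WT replicate 3 and at 1031 to 1214 CPM in the other mice, and without that mouse its log2 fold change was -0.12.

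In pericytes the calcium list stood furthest from 0: all 6 genes tested had a negative log2 fold change, with a median of -0.43 against -0.0032 over all genes, and 2 had an unadjusted p under 0.05, as for 3.13% of all genes tested. *Casq2* was at 573, 381, and 491 CPM in WT and 276, 274, and 370 CPM in ArcSwe pericytes, -0.61 ± 0.26 on the log2 scale (adjusted p = 0.997, edgeR), with no overlap of the groups, as for 8.3% of all genes. *Atp2a2*, the calcium pump of the sarcoplasmic reticulum, was at 292, 421, and 260 CPM in WT and 144, 274, and 207 CPM in ArcSwe, -0.59 ± 0.28 (adjusted p = 0.997, edgeR), with overlap. Both genes were picked out after their values were seen, and the 6 genes were measured in the same cells, so they are not separate results.

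**Figure D5:**
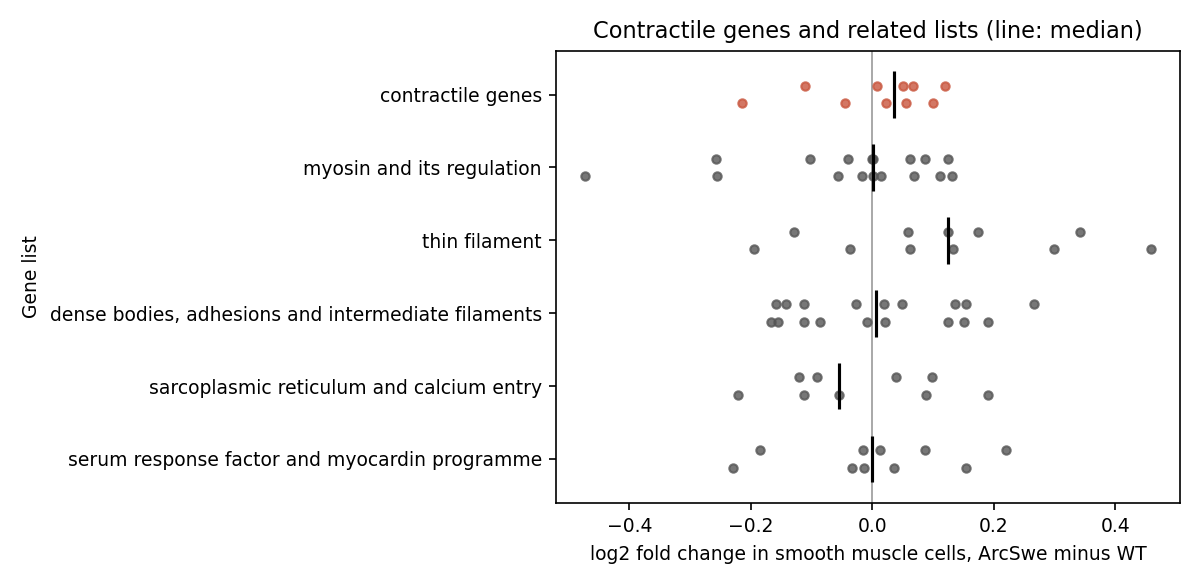
Log2 fold change of ArcSwe against WT in VSMCs for the 10 contractile genes (red) and the tested genes of the 5 related lists (grey), 1 point per gene with a line at the median of each list. Medians run from -0.06 to 0.12, and no gene shown passed the test.

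The number of VSMCs recovered relative to pericytes was compared as well. VSMCs made up 93.8%, 95%, and 88% of VSMCs plus pericytes in the WT mice and 93.7%, 91.8%, and 83.5% in the ArcSwe mice, on average 92.3% ± 3.71 and 89.6% ± 5.43 (SD, n = 3). The difference of -2.62 percentage points gave p = 0.5 in an exact two-sided permutation test, which cannot go below 0.1 with 3 mice against 3. The lowest value of each group was that of replicate 3, and without ArcSwe replicate 3 the difference was 0.467 percentage points. Capture on CD31 beads sets which mural cells are recovered, so these shares are of recovered cells.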

How the data were processed

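Raw UMI counts were deposited by the authors as 1 gene-by-cell table per mouse, made with Cell Ranger 7.0.0 on the mouse mm10 transcriptome extended with mouse *Clec7a* and human *NOTCH3*. Whether intronic reads were counted is not given in the sources used here. Cells with 500 to 4500 genes and under 10% mitochondrial counts were kept (44112 of 49059), giving a median of 2922 to 5542 UMIs per cell and library totals of 26436229 to 59161203 UMIs. Scrublet's own threshold marked no VSMC or pericyte as a doublet, and the 5% of cells with the highest scores were left out as an alternative. Cells were clustered with scanpy 1.11.5 (2000 variable genes, 30 components, Leiden resolution 1, Python 3.11.15), and clusters were named from fixed marker lists. Clusters with markers of several cell types (660 mural cells), an unnamed mural cluster with few ribosomal counts (148 cells, counted as VSMCs in an alternative), and 5595 endothelial cells with microglial UMIs were left out. UMIs were summed per mouse and class without 2712 ribosomal, mitochondrial, pseudogene, and Rik genes. WT and ArcSwe sums (3 mice each) were compared with edgeR 4.0.16 in R 4.3.3 (TMM scaling, filterByExpr, quasi-likelihood test, genotype as the term, Benjamini-Hochberg adjustment over all genes tested, threshold 0.05), checked on simulated data. DESeq2 1.42.0, other filters, scalings, clusterings, and leaving out each mouse were alternatives. The confidence intervals and standard errors of the fold changes come from the edgeR fit over mice, so they include the spread between mice. That fit draws the spread of each gene toward that of the other genes tested. They are thus not the spread of a gene's own 3 mice per group alone.

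The contractile genes and the related lists were chosen with earlier results of these data known. The genes named from each list were the 2 that differed most between the genotypes in VSMCs, by absolute log2 fold change, at a mean of 20 CPM or more, and any list gene that passed the test. Genes named for likeness were the 5 with the highest Pearson r to the mean of the contractile genes. Levels are counts of 3′ UMIs and are not ordered between genes.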

Additional observations from a re-analysis of the deposited data

Results flagged for a closer look

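For 3 genes outside the contractile set the genotype effect in VSMCs differed from that in pericytes in the test of the difference itself (edgeR, 9258 genes). For *Grm7*, a metabotropic glutamate receptor and a leading gene of the pericyte cluster, the VSMC effect minus the pericyte effect was 1.64 ± 0.31 on the log2 scale (adjusted p = 0.000823), with 26, 23, and 22 UMIs in WT and 32, 48, and 81 UMIs in ArcSwe VSMCs against 217, 103, and 664 UMIs in WT and 141, 94, and 692 UMIs in ArcSwe pericytes. For *Car4*, a carbonic anhydrase, it was 1.31 ± 0.27 (adjusted p = 0.00585). For *Iah1* it was -3.10 ± 0.71 (adjusted p = 0.0374), resting on 2, 0, and 1 UMIs in WT and 4, 5, and 26 UMIs in ArcSwe pericytes. None of the 3 genes passed in DESeq2 (adjusted p = 1.00 for each), without WT replicate 3 (adjusted p = 1.00, 0.249, and 1.00), or without ArcSwe replicate 2 (adjusted p = 0.0982 for each). The UMI counts of WT replicate 3 and ArcSwe replicate 3 were the highest for *Grm7* in pericytes, and these libraries held the most pericytes (80 and 172).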

How the results depend on the processing

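No contractile gene passed the test in any class under any alternative run, and the lowest adjusted p was 0.208 (*Myh11* in VSMCs without WT replicate 3). The numbers of genes called overall moved as follows. Without the filter on low counts 53 genes were called in VSMCs and 3 in pericytes (*Ccl4*, *Ccl3*, and *Ptgds*). Of the 53 genes, with 23 to 8946 UMIs, 47 had also been tested with the filter, where 0 were called. The 3 pericyte genes had not been tested with the filter, and each rested mostly on 1 mouse. Without both replicates 3, an alternative chosen after seeing the data, 9 were called in VSMCs, 5 in endothelial cells (*Nr1d1*, *Dbp*, *Sdk1*, *Cpe*, and *Ptchd1*), and 0 for the difference between classes. DESeq2 called 9 in endothelial cells and 0 for the difference between classes. With at least 1000 genes and under 5% mitochondrial counts per cell, 1 was called for that difference (*Car4*), and leaving out 1 mouse at a time gave 0 to 5: 0 without WT replicate 3 or ArcSwe replicate 2, 5 without ArcSwe replicate 1, and 1 without ArcSwe replicate 3. The difference in VSMC share ran from -4.73 to 0.467 percentage points when 1 mouse was left out. In the intermediate cells, where 5 genes were called, the number was 3 with the stricter cell filter (*Klf4*, *Socs3*, and *Hspa1a*), 1 without cells with UMIs of other cell types (*Klf4*), 3 in DESeq2 (*Klf4*, *Ccn2*, and *Hspa1a*), 9 without the filter on low counts, 3 without both replicates 3 (*Kcnab1*, *Klf4*, and *Ccn2*), and 1 to 14 when 1 mouse was left out: 1 without ArcSwe replicate 1, 2 without WT replicate 2, 3 without ArcSwe replicate 3, 11 without WT replicate 3, and 14 without ArcSwe replicate 2. In arterial endothelial cells, where 1 was called, it was 12 in DESeq2, 97 without the filter on low counts, 6 with the replicate block, 2 without both replicates 3 (*Nr1d1* and *Ptchd1*), and 1 to 2 when 1 mouse was left out. Both classes and their alternatives were added after seeing the data, and other clusterings and doublet removal were not run for them. The causes were not tested.

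Among single-gene values under the other alternatives, 467 kept their direction and 29 changed sign, all without a call. With the stricter cell filter the VSMC log2 fold changes were -0.042 (*Acta2*), -0.015 (*Tagln*), and -0.056 (*Cnn1*). Without both replicates 3 they were -0.060 (*Acta2*), -0.019 (*Tagln*), -0.077 (*Cnn1*), -0.049 (*Des*), -0.022 (*Tpm3*), and -0.16 (*Klf4*) in VSMCs, 0.013 (*Mylk*) and -0.087 (*Tpm2*) in pericytes, 0.39 (*Acta2*), 0.084 (*Tagln*), 0.15 (*Myh11*), -0.047 (*Des*), 0.024 (*Smtn*), and 0.12 (*Tpm2*) in endothelial cells, and -0.21 (*Mylk*) and 0.099 (*Tpm2*) for the difference between classes. Without cells with UMIs of other cell types they were 0.00079 (*Smtn*) in VSMCs and 0.064 (*Myh11*), -0.0016 (*Des*), and 0.025 (*Pln*) in endothelial cells. With the contractile genes among the variable genes they were 0.010 (*Myh11*) in endothelial cells and -0.0027 (*Mylk*) for the difference between classes. For *Tpm2* that difference was 0.036 with finer mural clusters, 0.077 in DESeq2, 0.016 with RLE scaling, and 0.0047 without the filter on low counts.

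Leaving out 1 mouse at a time, VSMC log2 fold changes ran from -0.053 to 0.086 (*Acta2*), -0.0098 to 0.11 (*Tagln*), -0.079 to 0.12 (*Cnn1*), -0.086 to 0.15 (*Des*), and -0.12 to 0.49 (*Klf4*). In pericytes they ran from -0.17 to 0.060 (*Myl9*) and -0.096 to 0.50 (*Tpm2*). In endothelial cells they ran from -0.86 to 1.10 (*Acta2*), -0.94 to 0.81 (*Tagln*), -0.65 to 0.72 (*Myh11*), -0.65 to 0.74 (*Myl9*), -0.070 to 0.39 (*Mylk*), -0.61 to 0.58 (*Des*), -0.080 to 0.062 (*Smtn*), -1.01 to 0.87 (*Tpm2*), and -0.65 to 0.46 (*Pln*). For the difference between classes they ran from -0.16 to 0.13 (*Mylk*) and -0.33 to 0.15 (*Tpm2*).

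Replicate numbers are shared between the groups. To compare samples of the same number, the group mean of each gene was subtracted from its TMM-scaled log2 CPM. These deviations were then correlated over the genes tested, so r does not measure the likeness of whole expression profiles. For numbers 1, 2, and 3, the deviations of the WT and ArcSwe samples had a Pearson r of 0.0861, 0.0932, and 0.276 in VSMCs. It was 0.0464, -0.121, and -0.0292 in pericytes, and 0.0593, 0.162, and 0.361 in endothelial cells. Between samples of unlike numbers the highest r was 0.0998 in VSMCs, 0.172 in pericytes, and 0.274 in endothelial cells. Only the samples of number 3 lay above this, in VSMCs and endothelial cells but not in pericytes. In VSMCs, pericytes, and endothelial cells, 4, 1, and 3 of the 6 mice correlated best with their own number. With the replicate block 0 genes were called in VSMCs, 0 in pericytes, 0 in endothelial cells, 7 in intermediate cells, and 3 for the difference between classes (*Grm7*, *Txndc11*, and *Car4*). Among the classes tested, depth limits intermediate cells and pericytes most, with 10 to 51 and 15 to 172 cells per mouse.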
